A study of Mus musculus with 10 samples.

Results

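Cadherins and protocadherins, the calcium-dependent cell adhesion genes of one superfamily, were examined in single neurons of the mouse hypothalamic paraventricular nucleus (PVH). Members were genes whose symbol is Cdh or Pcdh with a number, Pcdh11x, or an isoform of the clustered alpha, beta or gamma protocadherins. A member also needed at least 50 UMIs (unique molecular identifiers, the tags that mark single cDNA molecules) summed over the cells that passed the authors' quality control. Of 48397 genes in the table, 91 symbols fitted the name and 73 of them reached 50 UMIs. These were 46 clustered protocadherin isoforms and 27 other genes.

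Cadherins bind one another through repeated extracellular domains, and classical type I and type II members are tied to the actin cytoskeleton by catenins. Most pair with copies of themselves on the facing cell, so neurons that share a member can adhere and neurons that do not are sorted apart, which guides the wiring of retina, spinal cord and hippocampus. The delta protocadherins act in axon outgrowth and synapse number, while the clustered isoforms are chosen by alternative promoters in single neurons and give each neuron a surface label that its own branches avoid.

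The cells came from males over 7 weeks old, offspring of Agrp-IRES-Cre mice crossed with the tdTomato reporter line Ai9, and every library shares that genotype and 1 condition. Cre is driven here by the gene for agouti-related peptide, whose neurons lie outside the PVH. The labels speak of picking the red neurons, the methods of using red axons to find the nucleus, and a UMI of Agrp or Npy was seen in 15 of the 664 PVH neurons described below. The data held 706 cells on 10 plates, each plate a sample, with the prefixes Q (4 plates, 327 cells) or AL and JM (6 plates, 379 cells). The sources do not tie plates to animals, so p-values measure the spread between plates.

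The comparisons used 664 cells in 12 PVH clusters, called here by their deposited numbers. The peptide that led each cluster was Oxt in clusters 1 (221 cells) and 12 (35 cells), Avp in clusters 2 (53), 3 (36), 4 (22) and 10 (62), Sst in 7 (35) and 8 (42), and Trh in 9 (25) and 15 (60). Cluster 10 also carried Crh, cluster 14 (57) carried Penk and Crh, and cluster 13 (16) carried Gad2, an enzyme of GABA synthesis, in 93.75% of its cells. Sim1, which marks PVH neurons, had a UMI in 398 of the 664 cells. Total UMIs per cell ran from 50646 to 1078101 with a median of 128672, and the medians were 235270 on Q plates and 85167 on AL and JM plates. Plate prefix and cluster were partly confounded, since clusters 4, 12 and 13 had no cell on Q plates and cluster 8 had 40 of its 42 cells there. A UMI of any of 13 glial and endothelial markers was found in 84 of 706 cells. Oxt itself had a UMI in 94.7 to 100% of the cells of every PVH cluster, whatever peptide led it, so a single UMI need not mean expression. Doublets were not called. Where plates are named below, they carry their labels (Q5 to Q8, AL5, AL6 and JM5 to JM8).

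The delta-2 protocadherins held the largest share of the members' UMIs, 37.3%, and the delta-1 protocadherins 19.5%. Cdh13 and Cdh23 together held 15.5%, type II cadherins 9.53% and classical type I cadherins 7.34%. The 46 clustered isoforms held far less, with 3.60% for the beta group, 3.30% for gamma A and B, 1.40% for alpha and 0.945% for the C-type isoforms. Pcdh17 was the most widely seen member, in 651 of 706 cells (92.2%), followed by Cdh13 in 517, Pcdh10 in 457, Pcdh9 in 430, Cdh2 in 421 and Pcdh7 in 380. No UMI was found for Cdh1 (E-cadherin of epithelia), Cdh5 (VE-cadherin of blood vessels), Cdh16, Cdh26, Pcdh12, Pcdhgb1 or Pcdhgb8, and a count of 0 limits cells with a UMI, not cells that express the gene. Just inside the limit of 50 UMIs were Pcdha2 with 55, Cdh6 with 58 and Pcdhga7 with 61. Just outside it were Pcdhac1 and Pcdhga6 with 47 each and Pcdhb13 with 42.

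A member was called on in a cluster when over 40% of its cells held a UMI and off when under 5% did. By that reading 14 of the 73 members were on in at least 1 PVH cluster, 10 were off in all 12, and 49 were neither. Pcdh10 and Pcdh17 were on in all 12 clusters. Cdh7, Cdh9, Cdh11, Pcdh8, Pcdh11x and Pcdh19 were on in at least 1 cluster and off in at least 1 other, and these 6 genes are all type II cadherins or delta protocadherins. The Oxt cells of cluster 1 held 6 members on, namely Cdh2, Cdh13, Cdh22, Pcdh9, Pcdh10 and Pcdh17. Clusters 2 and 3, both led by Avp, held the same set of 7, which was Cdh2, Cdh4, Cdh9, Cdh13, Pcdh7, Pcdh10 and Pcdh17. Clusters 13 and 14 held the most, 10 each.

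**Figure D1:**
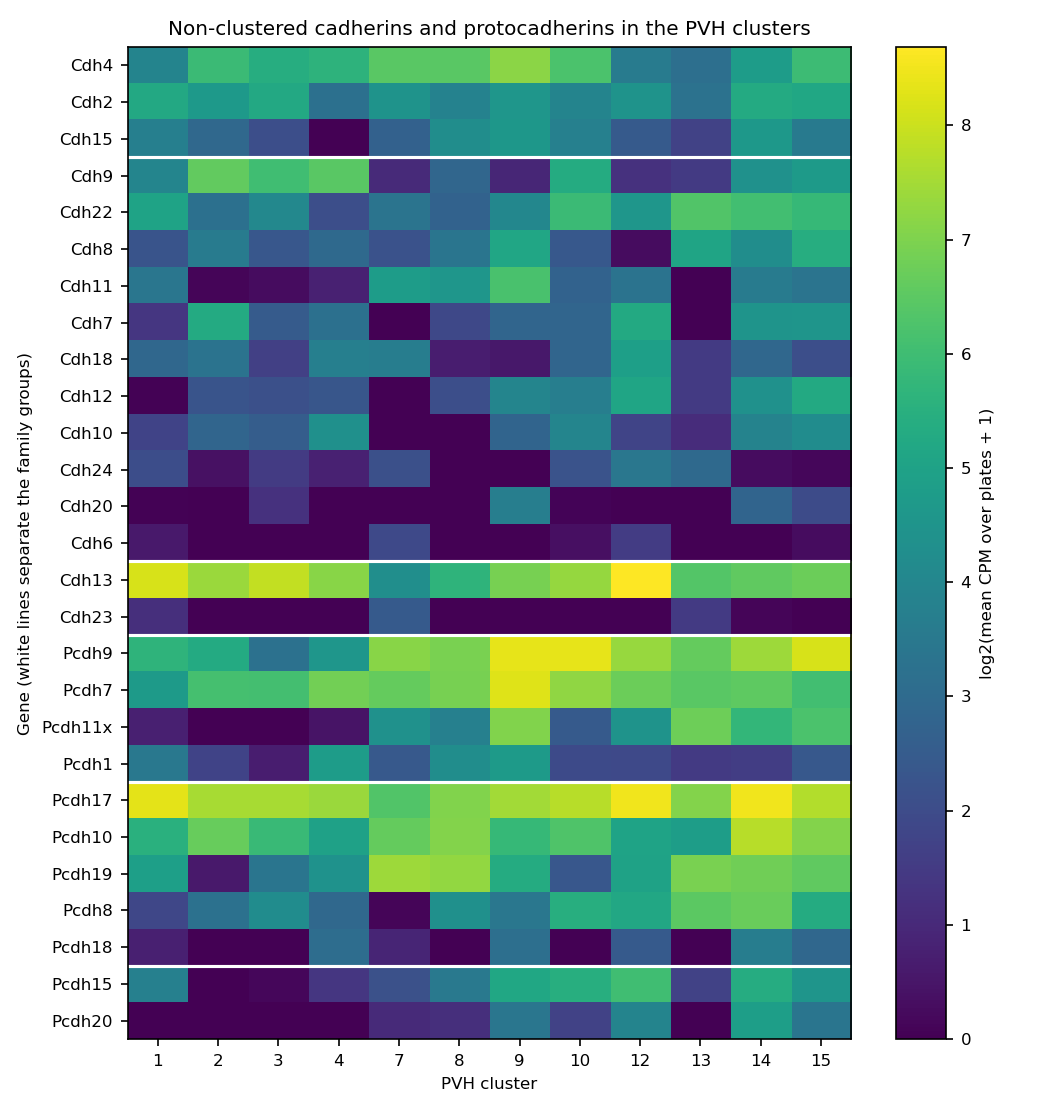
Mean level of each of the 27 non-clustered members in the 12 PVH clusters, as log2 of the mean CPM over plates plus 1, with clusters on the x axis, genes grouped by family on the y axis and brighter colours for higher levels. Pcdh17 and Pcdh10 are bright in every column, while Cdh9, Pcdh19 and Pcdh11x switch between bright and dark columns.

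Promoter windows are shown for 3 members with contrasting patterns over the clusters: Pcdh17, which was on in all of them, and Cdh9 and Pcdh19, whose levels ran in opposite directions (r = -0.65 over 12 clusters). Each is the RefSeq window of 300 bases, 250 before and 50 after the start of the gene, in build GRCm38.p6, written 5′ to 3′ on the gene's strand, and capitals mark a GC box (GGGCGG on either strand).
Pcdh17: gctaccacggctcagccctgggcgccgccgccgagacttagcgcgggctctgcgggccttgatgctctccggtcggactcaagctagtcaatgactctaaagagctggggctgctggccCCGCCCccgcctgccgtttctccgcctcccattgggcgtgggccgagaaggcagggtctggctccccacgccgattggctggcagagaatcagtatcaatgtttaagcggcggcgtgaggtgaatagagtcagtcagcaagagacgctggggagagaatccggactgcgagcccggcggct
Cdh9: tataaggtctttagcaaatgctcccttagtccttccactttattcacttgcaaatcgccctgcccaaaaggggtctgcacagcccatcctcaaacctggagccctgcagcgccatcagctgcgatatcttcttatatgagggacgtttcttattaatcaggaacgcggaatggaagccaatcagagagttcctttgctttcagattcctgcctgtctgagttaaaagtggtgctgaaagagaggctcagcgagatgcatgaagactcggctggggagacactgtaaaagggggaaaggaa
Pcdh19: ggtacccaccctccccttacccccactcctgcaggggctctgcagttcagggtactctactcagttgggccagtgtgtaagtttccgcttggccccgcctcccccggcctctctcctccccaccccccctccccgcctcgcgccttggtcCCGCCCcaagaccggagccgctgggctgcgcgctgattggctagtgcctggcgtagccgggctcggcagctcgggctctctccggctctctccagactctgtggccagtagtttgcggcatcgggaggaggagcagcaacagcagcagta
The windows lie at chr14:84443313-84443612 on the plus strand for Pcdh17, chr15:16728665-16728964 on the plus strand for Cdh9 and chrX:133688944-133689243 on the minus strand for Pcdh19. Pcdh17 and Pcdh19 held 1 GC box each, with 26 and 18 CpG dinucleotides, while Cdh9 held no GC box and 8 CpG. RefSeq gave 24 windows for 21 members, and 9 of the 24 held a GC box, against 35.7% of 32851 windows of that length. A TATA box (TATAAA, either strand) was in 2 of the 24 against 13.6%, and ACGTG (either strand) in 3 against 19.6%.

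To ask which members differed among the 12 clusters, UMIs were summed over the cells of each cluster on each plate and compared with edgeR's quasi-likelihood test, with plate as a block and Benjamini-Hochberg adjustment over all genes. A gene was called when its adjusted p was under 0.05. Levels are given as CPM, a gene's UMIs scaled by the total of its sum, as mean ± SD over the plates with at least 3 cells, and they are compared only within a gene. In summed cells, fewer cells with a gene and less RNA per cell cannot be told apart. The clusters had been drawn from the expression of these same cells, so a difference between them is not evidence for the clusters.

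Among 13082 genes tested across the clusters, 21.2% were called. Of the 73 members, 49 had enough UMIs to be tested and 25 were called. By family, all 5 delta-2 protocadherins, 3 of 4 delta-1 protocadherins and 8 of the 10 type II cadherins tested were called, against 0 of 3 type I cadherins. The non-clustered members gave 19 calls of 25 tested and the clustered isoforms 6 of 24. The smallest adjusted p-values (edgeR) belonged to Pcdh19 (2.21e-08), Pcdh11x (1.58e-07), Cdh9 (7.91e-07) and Cdh13 (4.11e-06). A member whose UMIs come from few clusters passes the filter on low counts through those clusters, so these counts describe the tested members and not the whole family.

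Each cluster was then set against the other PVH cells of the same plates. Over the 12 clusters, 306 such tests of 39 members gave 36 calls, 11 higher and 25 lower, in 16 genes. Over all genes 3.29% of these tests were called, 1.05% higher and 2.24% lower. None of the 65 tests of clustered isoforms was called. The median log2 fold change of all genes lay below 0 in every cluster, between -0.82 and -0.08. When each plate was left out in turn, no call changed sign, and 18 of the 35 calls that this could test were past the threshold in every fit. Pcdh17 in cluster 13 had no such test, since leaving out any of its 3 plates drops the cluster. In the 23 calls that could be fitted on Q plates and on AL and JM plates apart, the direction was the same in both. Of these, 6 passed the threshold in both.

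The calls were spread unevenly over the clusters. In cluster 7, 1 of 18 tested members was higher and 6 were lower, against 1.11% and 4.97% of all genes. In cluster 3, 0 of 23 were higher and 3 lower, against 1.04% and 1.91%. Cluster 14 had 2 higher and 1 lower of 26, against 1.42% and 3.98%, and cluster 9 had 2 higher and 0 lower of 26, against 0.472% and 0.774%. Each of clusters 2, 10 and 12 had 1 higher and 1 lower, against 0.469% and 0.793% in cluster 2, 0.913% and 3.55% in cluster 10, and 0.651% and 1.26% in cluster 12. Cluster 13 had 0 higher and 1 lower of 23, against 0.262% and 1.13%, and cluster 15 had 1 higher and 0 lower of 25, against 0.0678% and 1.81%. Clusters 4 and 8 had no call, against 0.243% higher and 0.427% lower genes in cluster 4 and 0.0326% and 0.0408% in cluster 8.

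**Figure D2:**
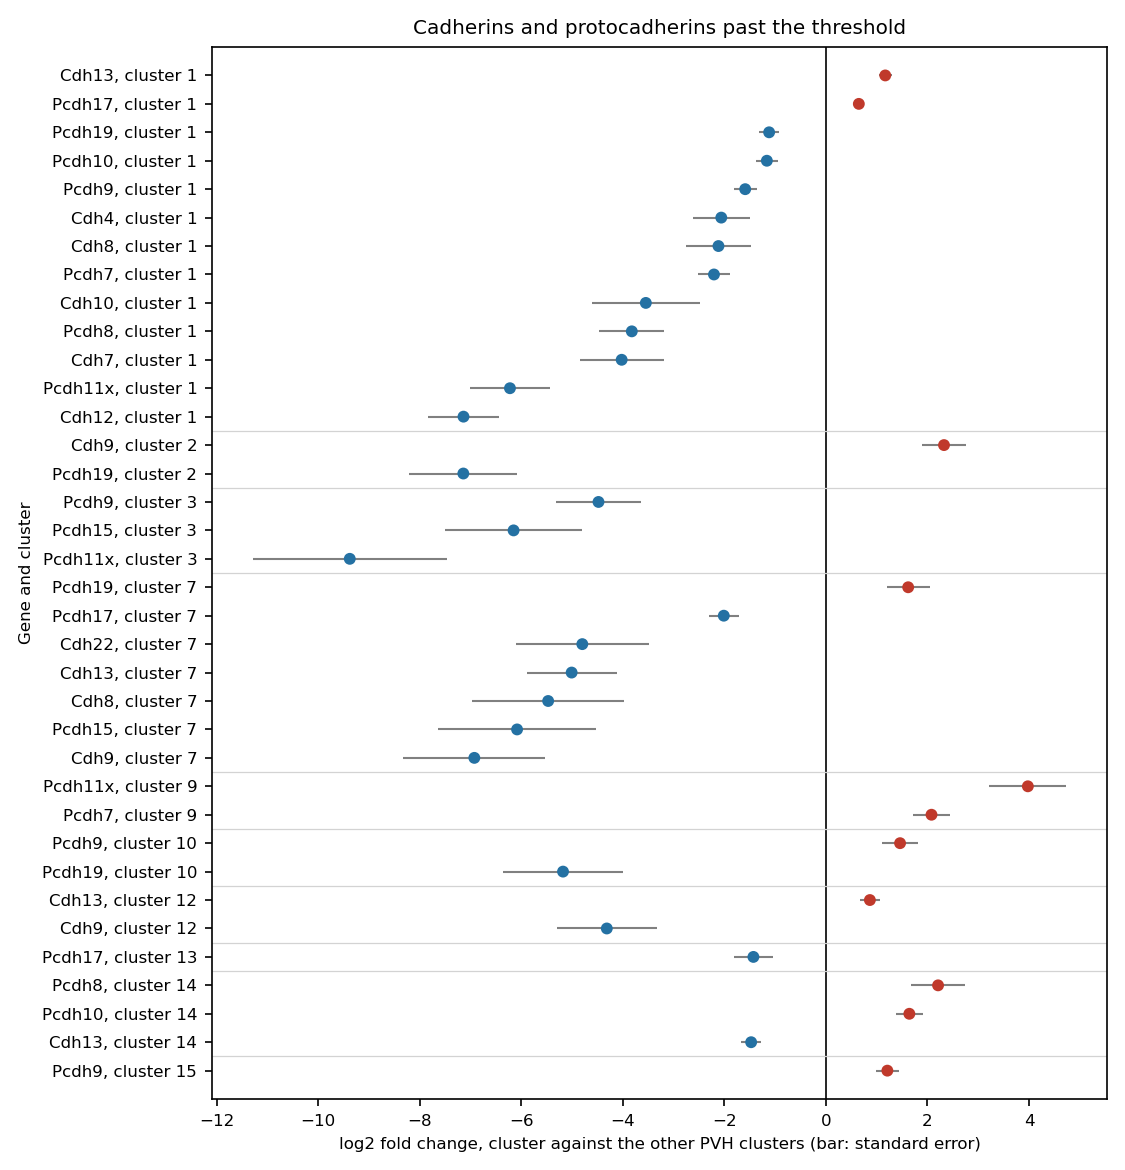
The 36 calls as log2 fold change of a cluster against the other PVH cells of the same plates (x axis, with the standard error as a bar), 1 row per gene and cluster, red for higher and blue for lower. Cluster 1 has 13 calls, most of them lower, and the values range from 3.98 for Pcdh11x in cluster 9 to -9.38 for Pcdh11x in cluster 3.

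Of the 3 classical type I cadherins edgeR called 0 across the clusters, with 1, Cdh4, at an unadjusted p under 0.05. Cdh2 (N-cadherin, the main classical cadherin of synapses) had mean levels from 8.18 ± 16.1 CPM in cluster 4 (5 plates) to 39.1 ± 16.7 in cluster 14 (8 plates), and was not called across clusters (adjusted p = 0.284, edgeR). It had a UMI in 18.2% of the cells of cluster 4 (95% exact binomial interval 5.19 to 40.3, with 16.7% after thinning) and in 78.3% of those of cluster 1 (72.3 to 83.5, 61.1% after thinning). Thinning means that each cell was cut to 63046 UMIs at random and shallower cells were left out, and intervals and limits given with shares cover counting error only. Cdh4 (R-cadherin) ran from 8.06 ± 9.65 CPM in cluster 13 to 143 ± 78.3 in cluster 9, but its plates spread widely and the test across clusters gave an adjusted p of 0.0621. Against the other cells Cdh4 was called lower in cluster 1, at 14.1 ± 15.5 against 50.4 ± 25.2 CPM (log2 fold change -2.06 ± 0.57 SE, adjusted p = 0.0232, lower on 9 of 10 plates). That call was lost without Q6, Q8, AL5 or JM7, with an adjusted p of up to 0.0572. Cdh15 (M-cadherin, best known from muscle) had no UMI in the 22 cells of cluster 4 and 23.6 ± 27.6 CPM in cluster 14, and in several clusters most of its UMIs came from 1 cell.

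Among type II cadherins, Cdh9 had its 3 highest means in the Avp clusters 2, 3 and 4, of which cluster 2 was called. Cdh9 is a synaptic type II cadherin known from hippocampal mossy fibres and retinal bipolar cells. In cluster 2 its level was 110.7 CPM on Q5, 127 on Q6, 25.7 on Q7, 107 on Q8 and 108 on JM8. Q7 stood low and the other plates lay close together, and every plate was above its own remaining PVH cells (mean 95.7 ± 39.97 against 20.3 ± 14.1). The log2 fold change was 2.33 ± 0.43 SE (adjusted p = 0.0183, edgeR; 1.26% of genes were called in cluster 2). The call was lost without Q5, Q6, Q8 or JM8, with an adjusted p of up to 0.105. In cluster 4, Cdh9 stood at 79.2, 128, 70.4, 33.4 and 126 CPM on AL5, AL6, JM5, JM6 and JM8, and in cluster 3 at 118, 51.3, 115, 18.1 and 16.3 CPM on AL5, AL6, JM6, JM7 and JM8. Neither of these was called. Cluster 10, also led by Avp, stood at 39.7 ± 35.1 CPM against 28.0 ± 13.8 in the other cells (log2 fold change 0.09 ± 0.71 SE, adjusted p = 0.962). The share of cells with Cdh9 was 77.3% in cluster 4 (interval 54.6 to 92.2), 75% in cluster 3 and 62.3% in cluster 2, against 2.86% in cluster 7 (0.0723 to 14.9). Thinned cells gave 66.7, 73.3, 56 and 3.03%.

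Cdh9 was called lower in the Sst cluster 7 and in the Oxt cluster 12. In cluster 7 it was 0 on 7 of 8 plates and 8.32 CPM on JM6, against 30.6 ± 15.7 CPM in the other cells (log2 fold change -6.93 ± 1.40 SE, adjusted p = 0.00377, edgeR; 6.08% of genes called). All of its 3 UMIs there came from 1 cell, and the pooled ratio was 59.1-fold lower with a counting interval of 20.2 to 287. Counting intervals of pooled ratios, here and below, treat every UMI as independent. UMIs of the same cell are not, so these intervals are too narrow. In cluster 12, Cdh9 ran from 0 to 4.59 CPM with a median of 0.707 over 6 plates, against 27.5 ± 4.00 in the other cells (-4.32 ± 0.99 SE, adjusted p = 0.0338; 1.92% of genes called). Leaving out AL5, AL6, JM5, JM6, JM7 or JM8 ended that call, with an adjusted p of up to 0.116. Mean Cdh9 levels were also low in clusters 8, 9 and 13, at 6.32, 0.921 and 1.81 CPM, and intermediate in clusters 1, 14 and 15, at 14.5, 20.02 and 25.8 CPM, with no call in these 6.

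Cdh12 (brain cadherin) was nearly missing from the Oxt cells of cluster 1. It ran from 0 to 0.189 CPM over the 10 plates of cluster 1, with a median of 0, and from 5.07 to 48.0 in the other cells, with a median of 13.9. The 2 ranges did not overlap, and the log2 fold change was -7.14 ± 0.70 SE (adjusted p = 2.72e-06, edgeR; 11.9% of genes were called in cluster 1, 5.6% higher and 6.3% lower). Cluster 1 held 3 Cdh12 UMIs against 926 in the other cells, 254-fold lower with a counting interval of 86.6 to 1233. Cdh12 was highest in clusters 15 (37.9 ± 43.0 CPM) and 12 (33.7 ± 32.0), where 26.7% and 28.6% of cells had a UMI, and no UMI was found in the 35 cells of cluster 7, so that the share could reach 8.57%.

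Cdh7 was also low in cluster 1 and high in 2 clusters of differing peptides. Its level in cluster 1 ran from 0 to 7.52 CPM with a median of 0.361, and in the other cells from 2.27 to 27.9 with a median of 15.7. Cluster 1 was lower on 10 of 10 plates, by -4.02 ± 0.83 SE on the log2 scale (adjusted p = 0.00335, edgeR). Cdh7 stood at 37.4 ± 22.1 CPM in cluster 12, with a UMI in 48.6% of cells (interval 31.4 to 66.0), and at 38.3 ± 38.0 CPM in cluster 2, with 24.5%. It had no UMI in clusters 7 and 13.

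The other type II cadherins showed smaller or less even differences. Cdh11, first described in bone-forming cells, stood at 87.0, 94.0, 23.9 and 84.7 CPM on Q5, Q6, Q7 and JM8 in the Trh cluster 9, where 56% of cells had a UMI, and at 0.0937 ± 0.131 CPM in cluster 2, and it was called across clusters (adjusted p = 0.000872, edgeR) but in no single cluster. Cdh22 (PB-cadherin) was highest in cluster 13 (8.04, 70.8 and 159 CPM on AL5, AL6 and JM6) and in cluster 14 (65.7 ± 14.3 CPM), and it was called lower in cluster 7, at 9.16 ± 23.1 against 30.6 ± 13.4 CPM (log2 fold change -4.80 ± 1.31 SE, adjusted p = 0.029). Cdh8, a type II cadherin of retinal and cortical circuits, was called lower in cluster 1 (3.80 ± 4.28 against 13.6 ± 5.40 CPM, adjusted p = 0.041) and in cluster 7 (adjusted p = 0.0287). Cdh10 was called lower in cluster 1 (2.34 ± 3.89 against 8.97 ± 5.23 CPM, adjusted p = 0.0379). These 4 calls of Cdh22, Cdh8 and Cdh10 were past the threshold in 2 to 4 of 10 fits with a plate left out, with edgeR adjusted p-values of up to 0.0863. Cluster 7 had sums on 8 plates, so some of its 10 fits left its data unchanged and had to pass. In cluster 7, Cdh22 lost its call without Q6, Q7, Q8, AL5, JM5 or JM6, and Cdh8 without Q5, Q6, Q7, Q8, AL5, JM6 or JM7. Cdh20 was called across clusters (adjusted p = 0.0233), yet 96.7% of its 60 UMIs in cluster 9 came from 1 cell. Cdh18 and Cdh24 were not called (adjusted p = 0.191 and 0.148), and Cdh6, with 58 UMIs in all, was not tested.

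Cdh13 (T-cadherin) differs from the rest in being held to the membrane by a lipid anchor with no cytoplasmic tail, and it also binds adiponectin. Both Oxt clusters carried the most of it. In cluster 1 it ran from 162 to 414 CPM with a median of 301, and in the other cells of those plates from 69.6 to 275 with a median of 146. The 2 ranges overlapped, but cluster 1 was higher on 10 of 10 plates, with a log2 fold change of 1.17 ± 0.13 SE (adjusted p = 9.73e-06, edgeR). The change was 1.48 on Q plates and 0.99 on AL and JM plates, past the threshold in both. In cluster 12 Cdh13 ran from 257 to 619.8 CPM with a median of 382, a log2 fold change of 0.87 ± 0.19 SE and higher on 6 of 6 plates (adjusted p = 0.0291). The call in cluster 12 was lost without AL5, AL6, JM5, JM7 or JM8, with an adjusted p of up to 0.104. A UMI of Cdh13 was found in 97.3% of the cells of cluster 1 (94.2 to 99.0, thinned 94%) and 97.1% of those of cluster 12.

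The Sst cells had the least Cdh13. In cluster 7 it ran from 0 to 81.7 CPM with a median of 1.19, against 202 ± 54.5 CPM in the other cells (log2 fold change -5.01 ± 0.89 SE, adjusted p = 0.00399, edgeR, lower on 8 of 8 plates). A UMI was found in 17.1% of its cells (6.56 to 33.6, thinned 12.1%). Cluster 8, also led by Sst, stood at 110, 27.4, 36.3 and 21.4 CPM on Q5 to Q8. In cluster 14 Cdh13 ran from 46.0 to 222 CPM with a median of 78.8, against 223 ± 56.6 in the other cells (-1.47 ± 0.20 SE, adjusted p = 0.000329, lower on 8 of 8 plates; 5.4% of genes called). Cdh13 was also low in cluster 13, at 81.5 ± 66.8 against 260 ± 35.6 CPM (lower on 3 of 3 plates). In cluster 15 it stood at 107 ± 97.8 against 196 ± 51.4 CPM (lower on 6 of 8 plates). Neither of clusters 13 and 15 was called (adjusted p = 0.0745 and 0.0647, edgeR). Cdh23, which forms the tip link of inner-ear hair cells, had a UMI in 7 of the 706 cells and was not tested.

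**Figure D3:**
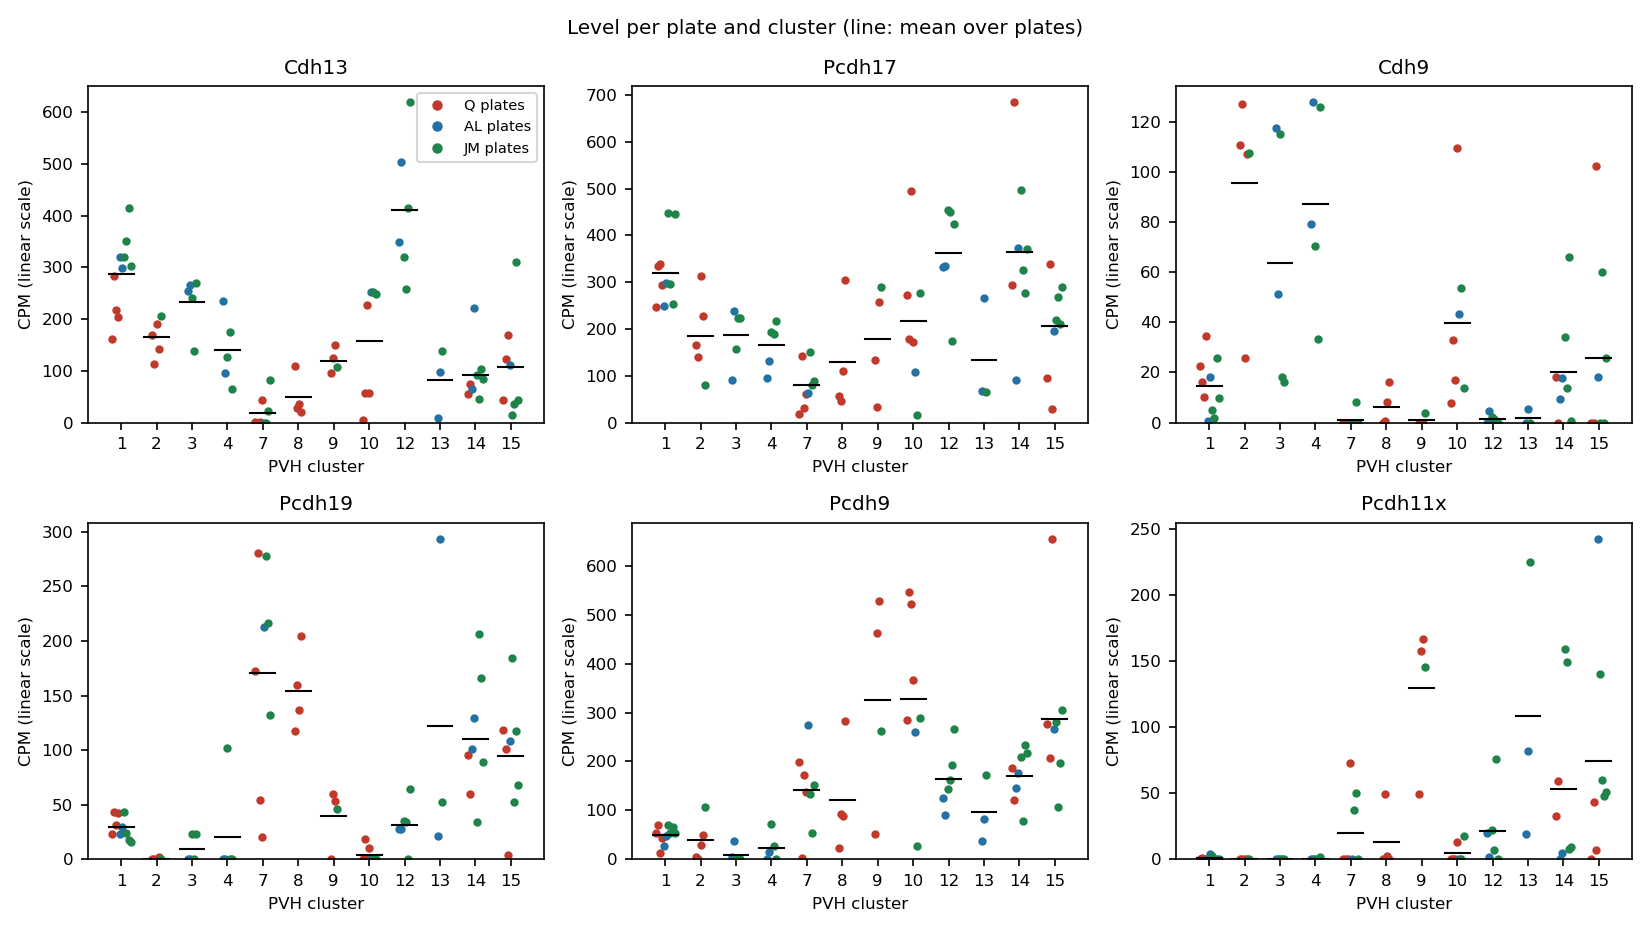
Level in CPM (linear y axis) of Cdh13, Pcdh17, Cdh9, Pcdh19, Pcdh9 and Pcdh11x in each PVH cluster (x axis), with 1 point per plate coloured by plate prefix and a line at the mean over plates. Cdh9 points lie high in clusters 2 to 4 where most Pcdh19 and Pcdh11x points lie at or near 0, and Cdh13 is highest in clusters 1 and 12.

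Among delta-1 protocadherins, Pcdh11x, an X-linked gene, came closest to all or nothing. In the Trh cluster 9 it stood at 48.9, 158, 167 and 146 CPM on Q5, Q6, Q7 and JM8. Q5 was low and the other plates lay close together, and each was above its remaining PVH cells (8.16 ± 7.29 CPM; log2 fold change 3.98 ± 0.76 SE, adjusted p = 0.0124, edgeR; 1.25% of genes called). The call was lost without Q6 or Q7, with an adjusted p of up to 0.126. Pcdh11x was also high in cluster 13, at 18.7, 81.7 and 225 CPM on AL5, AL6 and JM6, with a UMI in 75% of cells (47.6 to 92.7, thinned 70%).

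In clusters 1 to 4, led by Oxt or Avp, Pcdh11x was scarce. In cluster 1 it ran from 0 to 3.69 CPM with a median of 0 against 7.16 to 56.5 with a median of 31.6 (log2 fold change -6.23 ± 0.80 SE, adjusted p = 4.11e-05, edgeR, lower on 10 of 10 plates). In cluster 3 it was 0 on all 5 plates against 28.3 ± 14.7 CPM, at least 30.8-fold lower with a floor of 3 UMIs for the cluster (adjusted p = 0.0311; 2.95% of genes called). Leaving out AL6, JM6 or JM7 ended that call, with an adjusted p of up to 0.103. Cluster 2 held no Pcdh11x UMI in 53 cells, so that the share could reach 5.66%, and cluster 4 held 1. Cluster 10, also led by Avp, stood at 4.44 ± 7.69 CPM, lower than the other cells on 6 of 7 plates. The Oxt cluster 12 stood at 21.0 ± 28.4 CPM, lower on 4 of 6 plates. Neither of clusters 10 and 12 was called (adjusted p = 0.159 and 0.580, edgeR).

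Pcdh9 was highest in the clusters led by Trh and in cluster 10. In cluster 10 it stood at 285, 546, 523 and 367 CPM on Q5 to Q8 and at 261, 26.9 and 289.8 CPM on AL5, JM6 and JM8. JM6 was far below the other plates, and the mean of 329 ± 176 compared with 98.0 ± 32.3 CPM in the other cells (log2 fold change 1.46 ± 0.35 SE, adjusted p = 0.0164, edgeR, higher on 6 of 7 plates; 4.46% of genes called). On Q plates the change was 2.00 (adjusted p = 0.00786) and on AL and JM plates 0.55 (adjusted p = 0.791), and the call was lost without Q6, Q7, Q8 or AL5, with an adjusted p of up to 0.0808. In cluster 15 Pcdh9 ran from 107 to 657 CPM with a median of 272, higher than the other cells on 8 of 8 plates (1.21 ± 0.23 SE, adjusted p = 0.00764; 1.88% of genes called). The change in cluster 15 was 1.41 on Q plates (adjusted p = 0.175, edgeR) and 1.09 on AL and JM plates (adjusted p = 0.0619). With at most 1 UMI counted per cell and gene, the call in cluster 15 was also lost (adjusted p = 0.606, edgeR). In cluster 9 Pcdh9 averaged 326 ± 216 CPM and was not called.

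Pcdh9 was low in clusters 1 and 3. In cluster 1 it ran from 12.9 to 70.4 CPM with a median of 53.3, and in the other cells from 86.9 to 213 with a median of 151, so the ranges did not overlap (log2 fold change -1.59 ± 0.23 SE, adjusted p = 0.000124, edgeR). In cluster 3 it was 4.75 on AL5, 37.6 on AL6 and 0 on JM6, JM7 and JM8, against 114 ± 49.7 CPM (-4.48 ± 0.85 SE, adjusted p = 0.0109). That call was lost without AL5, with an adjusted p of 0.0536. Only 5.56% of the cells of cluster 3 had a Pcdh9 UMI (0.680 to 18.7), against 96% in cluster 9 (79.6 to 99.9), and thinned cells gave 6.67% and 91.3%.

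Pcdh7 (NF-protocadherin, an axon initiation gene) was highest in cluster 9, at 152, 442, 172 and 455 CPM on Q5, Q6, Q7 and JM8. All 4 plates lay above their remaining cells, at 58.2 ± 22.8 CPM (log2 fold change 2.08 ± 0.36 SE, adjusted p = 0.00668, edgeR), and the call was lost without Q6 (adjusted p = 0.0902). It was lowest in cluster 1, where it ran from 4.33 to 56.5 CPM against 65.2 to 166 with no overlap (-2.21 ± 0.32 SE, adjusted p = 0.000145). Pcdh1, the other delta-1 member, had mean levels from 0.622 ± 0.923 CPM in cluster 3 to 27.1 ± 22.1 in cluster 4 and was not called across clusters (adjusted p = 0.102).

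All 5 delta-2 protocadherins were called across the clusters. Pcdh17, a delta-2 protocadherin of synapses in the basal ganglia, had mean levels from 79.8 ± 47.4 CPM in cluster 7 to 364 ± 173 in cluster 14. In cluster 1 it ran from 246 to 447 CPM with a median of 298, and in the other cells from 122 to 344 with a median of 226. Cluster 1 was higher on 10 of 10 plates (log2 fold change 0.65 ± 0.11 SE, adjusted p = 0.000689, edgeR). The direction turned when every cell counted at most 1 UMI per gene, so that a sum counts cells (-0.14, adjusted p = 0.584). In cluster 1, 98.6% of the cells had the gene. Why the direction turned was not tested. In cluster 7 Pcdh17 ran from 18.1 to 149.7 CPM with a median of 72.1, below the other cells on 8 of 8 plates (-2.01 ± 0.30 SE, adjusted p = 0.000141). In cluster 13 it stood at 67.0, 267 and 65.8 CPM on AL5, AL6 and JM6, also called lower (-1.43 ± 0.38 SE, adjusted p = 0.0253; 1.4% of genes called), though DESeq2 gave an adjusted p of 0.11 there.

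Pcdh19, whose X-linked mutations cause an epilepsy of girls, was the member with the smallest p across clusters. In the Sst cluster 7 it ran from 20.2 to 281 CPM with a median of 193, and 88.6% of cells had a UMI (73.3 to 96.8, thinned 84.8%). It was higher than the other cells on 7 of 8 plates (171 ± 96.4 against 45.3 ± 10.7 CPM; log2 fold change 1.62 ± 0.42 SE, adjusted p = 0.0219, edgeR). The change was 0.97 on Q plates (adjusted p = 0.509) and 2.15 on AL and JM plates (adjusted p = 0.00938), and the call was lost without Q5, Q6, AL5, JM5 or JM6, with an adjusted p of up to 0.0775. The Sst cluster 8 stood at a like level, with 117, 159, 137 and 204 CPM on Q5 to Q8, and was not called.

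Pcdh19 was close to absent from the Avp cluster 2 and from cluster 10. In cluster 2 it was 0 on Q5, Q6 and JM8, 0.268 CPM on Q7 and 2.21 CPM on Q8, against 56.4 ± 10.5 CPM in the other cells (log2 fold change -7.14 ± 1.06 SE, adjusted p = 0.00473, edgeR). In cluster 10 it was 18.4 CPM on Q6, 10.4 on Q8 and 0 on Q5, Q7, AL5, JM6 and JM8, against 50.8 ± 9.48 CPM (-5.18 ± 1.19 SE, adjusted p = 0.014). A Pcdh19 UMI was found in 3.23% of the cells of cluster 10 (0.393 to 11.2, thinned 3.85%). Both calls were past the threshold whichever plate was left out. The Avp clusters 3 and 4 were also low in Pcdh19, at 9.29 ± 12.5 and 20.3 ± 45.4 CPM. They were lower than the other cells on 5 of 5 and 4 of 5 plates, with no call (adjusted p = 0.0736 and 0.122, edgeR). In cluster 1 Pcdh19 lay in between, at 15.6 to 43.3 CPM against 44.1 to 97.2 with no overlap (-1.12 ± 0.19 SE, adjusted p = 0.000748).

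Pcdh10 (OL-protocadherin, linked to activity-driven synapse removal) and Pcdh8 (arcadlin, induced by synaptic activity) were both highest in cluster 14. Pcdh10 ran there from 64.5 to 351 CPM with a median of 227, against 61.7 ± 20.6 CPM in the other cells (log2 fold change 1.64 ± 0.27 SE, adjusted p = 0.00141, edgeR, higher on 7 of 8 plates). Pcdh8 ran from 12.1 to 322 CPM with a median of 79.8, against 17.2 ± 8.38 (2.21 ± 0.53 SE, adjusted p = 0.0199, higher on 7 of 8 plates), and that call was lost without Q5, AL5 or JM8, with an adjusted p of up to 0.0702. In cluster 1 both were lower on 10 of 10 plates, with Pcdh10 at 44.9 ± 20.5 against 105 ± 30.6 CPM (-1.16 ± 0.21 SE, adjusted p = 0.0011) and Pcdh8 at 2.59 ± 2.498 against 31.3 ± 13.1 (-3.83 ± 0.64 SE, adjusted p = 0.000553). Pcdh8 had a single UMI in the 35 cells of cluster 7. Pcdh18, with 265 UMIs in all, was called across clusters (adjusted p = 0.038) and reached its highest mean in cluster 14, at 11.9 ± 15.2 CPM.

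Pcdh15 and Pcdh20 complete the non-clustered protocadherins. Pcdh15, the partner of Cdh23 in the hair-cell tip link, had its highest mean in cluster 12 (63.8 ± 68.4 CPM) and no UMI in the 53 cells of cluster 2. It was called lower in cluster 3, with 1 UMI against 616 (80.4-fold lower, counting interval 14.4 to 3179, adjusted p = 0.0246, edgeR), a call lost without AL5, AL6, JM6, JM7 or JM8, with an adjusted p of up to 0.146. It was also called lower in cluster 7, where it was 0 on 7 of 8 plates (adjusted p = 0.0181), and this was lost without Q5 or Q7, with an adjusted p of up to 0.0548. Pcdh20 had no UMI in the 221 cells of cluster 1, so that the share could reach 1.36%, and none in clusters 2, 3, 4 and 13. It averaged 28.2 ± 37.3 CPM in cluster 14 and 14.3 ± 11.8 in cluster 12, with a UMI in 22.8% and 22.9% of cells, and was called across clusters (adjusted p = 0.00053).

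The clustered protocadherins appeared as sparse isoforms. A PVH cell held a UMI of 1.56 of the 46 isoforms on average (1.30 in thinned cells), with none in 142 cells, 1 in 217, 2 in 163, 3 in 100 and at most 7. Over plates the mean was 1.59 ± 0.24, from 1.29 to 2.05. Q plates, though deeper, averaged 1.36 ± 0.089 isoforms and AL and JM plates 1.75 ± 0.15 (0.997 and 1.61 in thinned cells). By cluster the mean ran from 1.08 in cluster 10 to 2.03 in cluster 12. The 305 cells with at least 2 isoforms held 269 different combinations, and 244 of these were seen once. The most frequent, Pcdhac2 with Pcdhga8, was seen in 7 cells.

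**Figure D4:**
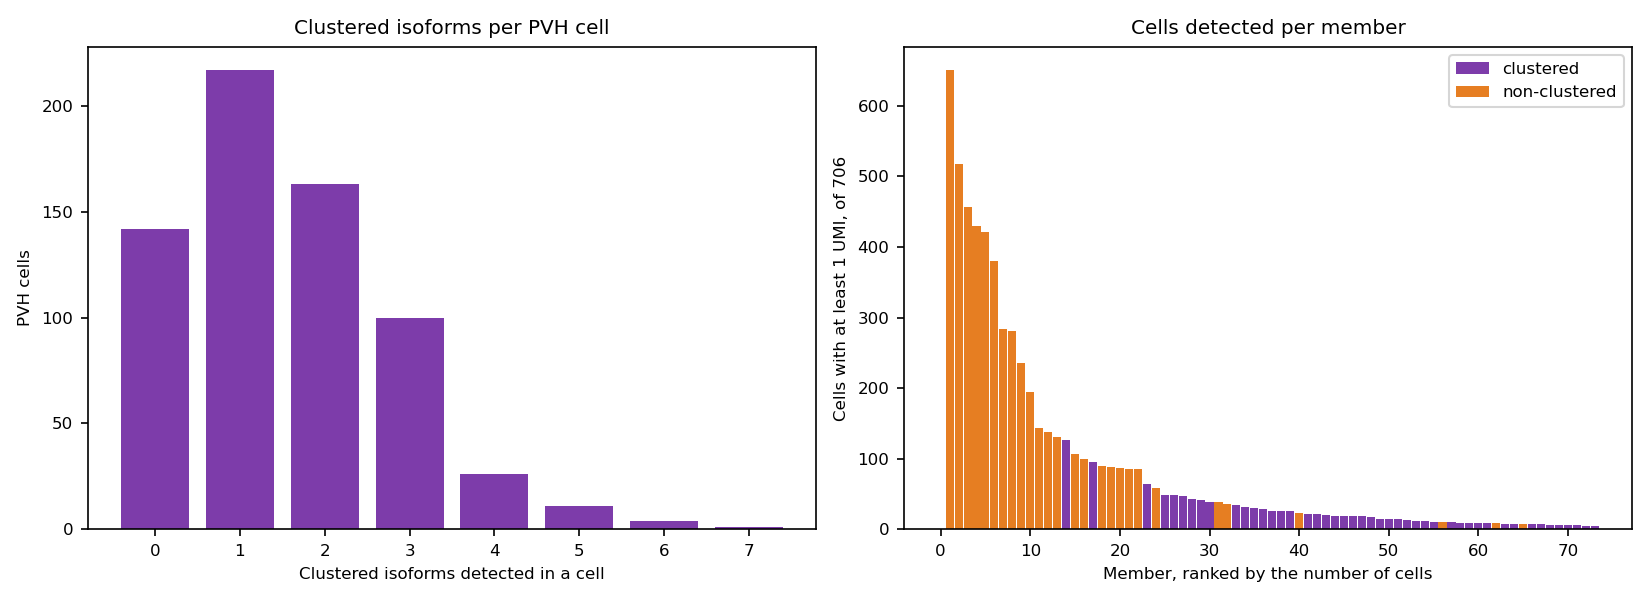
Left, the number of PVH cells (y axis) with 0 to 7 clustered isoforms detected (x axis). Right, the number of the 706 cells with at least 1 UMI (y axis) for each of the 73 members ranked from most to least, with clustered isoforms in purple and the others in orange, and the 13 widest members are all non-clustered.

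Counts of single isoforms are uncertain by construction. The alpha and gamma isoforms each join their own first exon to shared last exons, and UMIs here were read near transcript ends. For 26 members, most of the last 400 exonic bases of every coding transcript were shared with another gene. These were all 11 alpha isoforms, all 3 C-type isoforms, 11 of 13 gamma A and B isoforms and Pcdhb21. The other 18 beta isoforms and all 27 non-clustered members shared none of these bases. How the authors' counting treated reads in shared exons is not given in the sources used here.

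Across the 12 clusters 6 of the 24 clustered isoforms tested were called: Pcdhb8, Pcdhb12, Pcdhb17, Pcdhb20, Pcdha3 and Pcdhgb4, with adjusted p-values from 0.00692 to 0.028 (edgeR). This share of 25% compares with 21.2% over all genes. Each rested on few cells. Pcdhb8 had 194 UMIs in 18 of the 706 cells, with its highest mean in cluster 14 (15.3 ± 27.2 CPM), and Pcdhb20 had 437 UMIs in 34 cells, with its highest mean in cluster 15 (11.1 ± 19.5 CPM). Pcdha3 had 130 UMIs in 11 cells.

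Pcdhac2 and Pcdhgc5 are C-type isoforms, which in other neurons are expressed without the random choice of the rest, and Pcdhac2 dominates in serotonin neurons. Pcdhac2 was seen in 95 cells and its mean ran from 0 in cluster 9 to 13.8 ± 24.0 CPM in cluster 13 without a call (adjusted p = 0.892, edgeR). Pcdhgc5 was seen in 47 cells and ran from 0.387 ± 0.865 CPM in cluster 4 to 13.8 ± 24.0 in cluster 13 (adjusted p = 0.74). Pcdhga8 was the most widely seen clustered isoform, in 127 cells, with means from 7.22 ± 7.42 CPM in cluster 4 to 40.2 ± 64.1 in cluster 9 (adjusted p = 0.984).

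Cluster 1 had the most calls. Of 32 members tested, 2 were higher, Cdh13 and Pcdh17, and 11 were lower, against 5.6% and 6.3% of all genes. The members' median log2 fold change was -1.14 against -0.08 for all genes. That median was lower still in clusters 2 (-1.23), 3 (-1.58), 4 (-1.55), 7 (-1.16), 8 (-1.28) and 13 (-1.43). It was higher in clusters 9 (-1.02), 10 (-0.69), 12 (0.14), 14 (0.30) and 15 (-0.00073). A low median was thus not particular to cluster 1. All 11 of the lower genes were non-clustered, with 4 type II cadherins (Cdh7, Cdh8, Cdh10 and Cdh12) and Cdh4 beside Pcdh7, Pcdh8, Pcdh9, Pcdh10, Pcdh11x and Pcdh19. The number of members seen per cell ran the same way. After thinning, a cell of cluster 1 held 7.18 ± 0.94 of the 73 members and a cell of the other clusters 8.48 ± 1.68 (10 plates), a difference of -1.30 ± 1.08 (SD over plates) and lower on 10 of 10 plates. Without thinning the difference was -0.47 ± 1.16 and cluster 1 was lower on 6 of 10 plates. In thinned cells the difference was -0.50 on the 4 Q plates and -1.84 on the 6 AL and JM plates. Over all thinned cells of a cluster the mean was 7.09 in cluster 1, and lower in clusters 2 (6.5), 8 (6.80) and 10 (6.77). That mean was highest in clusters 12 (10.3) and 14 (10.7), so a low count was not particular to cluster 1. No such count over all genes is given. By family, thinned cells of cluster 1 held fewer delta-1 members (-0.52 ± 0.27, lower on 9 of 10 plates) and type II cadherins (-0.47 ± 0.46), and more of the pair Cdh13 and Cdh23 (0.36 ± 0.15, higher on 10 of 10 plates). No test is given for these scores.

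**Figure D5:**
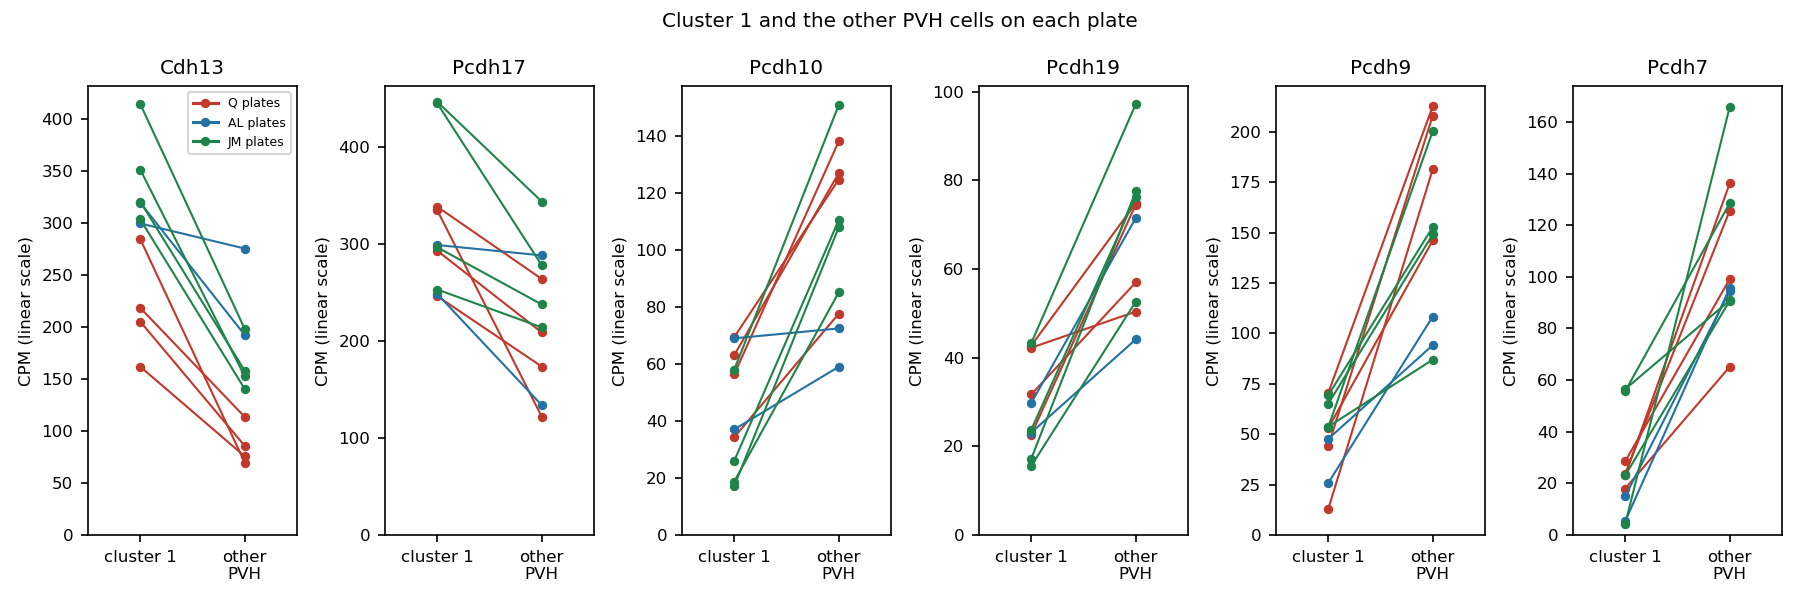
Level in CPM (linear y axis) of Cdh13, Pcdh17, Pcdh10, Pcdh19, Pcdh9 and Pcdh7 in cluster 1 and in the other PVH cells, with a line joining the values of each of the 10 plates, coloured by plate prefix. Every line falls from left to right for Cdh13 and Pcdh17 and rises for the other 4 genes.

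Pairs of clusters that share a peptide or lie next to each other were compared in the same fit. Over 9 pairs, 441 tests of members gave 8 calls, with 1.07% of all such tests called. The Oxt clusters 12 and 1 differed in Cdh12 (33.7 ± 32.0 against 0.0353 ± 0.0642 CPM, log2 fold change 7.38 ± 1.38 SE, adjusted p = 0.000287, edgeR; 2.09% of genes called), a pooled ratio of 465 with a counting interval of 154 to 2298. They also differed in Pcdh20, which was at least 280.0-fold higher in cluster 12, with a floor of 3 UMIs for cluster 1 (adjusted p = 0.00988). The Pcdh20 call was lost without AL5. Cluster 12 lay on AL and JM plates alone, while cluster 1 lay on all 10 plates. The Avp cluster 2 was below the Oxt cluster 1 in Pcdh19 (-5.54 ± 1.16 SE, adjusted p = 0.00197) and in Pcdh15, which was at least 39.1-fold lower (adjusted p = 0.0191; 1.58% of genes called). The Pcdh15 call was lost without Q6, Q7 or JM8.

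Pcdh19 also differed between cluster 10 and clusters 13 and 14. Crh had a UMI in 85.5% of the cells of cluster 10, 43.75% of those of cluster 13 and 100% of those of cluster 14. Cluster 14 ran from 34.3 to 207 CPM with a median of 97.8 and cluster 10 from 0 to 18.4 with a median of 0, so that the ranges did not overlap (log2 fold change 5.14 ± 0.98 SE, adjusted p = 0.000254, edgeR; 4.36% of genes called). Cluster 13, at 21.4, 294 and 51.9 CPM on AL5, AL6 and JM6, was higher by 4.91 ± 1.20 SE (adjusted p = 0.0254; 0.604% of genes called). The call between clusters 13 and 10 was lost without Q5, Q7, AL5, AL6, JM6 or JM8. Pcdh10 was higher in cluster 14 than in cluster 10 (215 ± 86.4 against 77.7 ± 42.0 CPM, 1.80 ± 0.55 SE, adjusted p = 0.0384, edgeR). The Pcdh10 call was lost without Q5, Q6, Q7, AL5, JM5, JM6, JM7 or JM8, and on either prefix alone. Of the Trh clusters, 15 was below 9 in Pcdh7 (64.9 ± 28.7 against 305 ± 166 CPM, -2.36 ± 0.59 SE, adjusted p = 0.0265; 0.749% of genes called). The Pcdh7 call was lost without Q5, Q6, JM6 or JM8.

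By edgeR 0 members were called between clusters 3 and 2, 4 and 3, 8 and 7, or 15 and 14 (0.252% of genes called in 8 against 7 and 0.0306% in 15 against 14). Over all genes edgeR called 0, 0, 33 and 4 at an adjusted p under 0.05. In cluster 4 and in cluster 8 against the other cells no member was called either, where 0.67% and 0.0734% of all genes were. At an unadjusted p under 0.05 the counts in the 4 pairs were 3, 3, 12 and 3 of 49 members. In clusters 4 and 8 they were 11 of 24 and 7 of 30 tested members. The share of all genes at that unadjusted level is not given, so such counts, here and below, cannot show a surplus of members.

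Plate prefix was compared within cluster 1, which had cells on all 10 plates. Of 30 members tested, 0 were called by edgeR and 1 by DESeq2, with 2 at an unadjusted p under 0.05, while 11.1% of all genes were called. Cdh13 came closest of the abundant members, at 217 ± 50.7 CPM on Q plates and 335 ± 43.0 on AL and JM plates, which did not overlap (log2 fold change -0.40 ± 0.17 SE, adjusted p = 0.148). A positive cell held more UMIs on Q plates, for example 72.5 against 27.3 for Pcdh17, where the median total was 235270 UMIs per cell on Q plates and 85167 on AL and JM plates. The change of cluster 1 against the other cells was also compared between the prefixes for its 13 called members, by an exact two-sided permutation test of the per-plate log2 ratios over 210 splits, where the smallest possible p is 0.00476. The smallest p was 0.0524, for Cdh12, and the smallest adjusted p was 0.475.

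Genes that work with cadherins were read from 4 lists. In the tests of single clusters cited here, cluster 1 called 11.9% of all genes, cluster 7 called 6.08% and cluster 14 called 5.4%. Of the catenins, which link classical cadherins to actin, 1 of 7 tested was called across the clusters, where 21.2% of all genes were, namely the p120-family member Pkp4, which in cluster 7 stood at 12.9 ± 18.4 against 90.3 ± 18.0 CPM (log2 fold change -4.18 ± 0.89 SE, adjusted p = 0.00567, edgeR). Ctnna1 (alpha-E-catenin) was higher in cluster 1, at 35.3 ± 13.5 against 18.1 ± 10.2 CPM (1.20 ± 0.31 SE, adjusted p = 0.0151). Of the other cadherin-superfamily genes, 5 of 11 were called across clusters, namely Dchs1, Dchs2, Fat1, Clstn1 and Cdhr1. In cluster 1 Celsr2, Clstn1, Clstn3 and Cdhr1 were lower, with changes from -0.29 for Clstn1 to -4.04 for Cdhr1. Across the clusters edgeR called 0 of 13 genes tied to promoter choice of the clustered isoforms and 0 of 8 genes of cadherin cleavage, with 1 of each list at an unadjusted p under 0.05. Tests of single PVH clusters gave 1 call higher and 1 lower of 92 for catenins and 0 and 5 of 103 for other superfamily genes. They gave 0 and 1 of 144 for promoter choice and 2 and 2 of 80 for cleavage. Over all genes 1.05% were higher and 2.24% lower. The promoter-choice call was Smc3, lower in cluster 14 (148 ± 51.5 against 214 ± 52.0 CPM, adjusted p = 0.0152, edgeR). Adam10, a protease that sheds N-cadherin, was higher in cluster 7 (187 ± 82.2 against 78.9 ± 24.3 CPM, adjusted p = 0.00767) and lower in cluster 1 (-0.69 ± 0.18 SE, adjusted p = 0.0189), while Psen2, of the gamma-secretase complex, was higher in cluster 1 (0.79 ± 0.16 SE) and lower in cluster 14 (-1.98 ± 0.43 SE, adjusted p = 0.00987).

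Across the cluster means on the log2(CPM + 1) scale, the members whose levels ran most alike were Pcdh15 with Pcdh9 (r = 0.81), Cdh13 with Pcdh17 (0.79), Pcdh11x with Pcdh9 (0.78), Cdh12 with Cdh7 (0.77) and Pcdh11x with Pcdh19 (0.71). The most opposed were Cdh9 with Pcdh11x (r = -0.72), Cdh18 with Cdh8 (-0.67) and Cdh9 with Pcdh19 (-0.65). These describe 12 cluster means from the same libraries, and the least seen of these genes had a UMI in 85 cells.

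Cluster 6 (25 cells) lay outside the 12 PVH clusters, with Gad2 in 96% of its cells and Sim1 in 4%. Against the PVH clusters edgeR called none of its 22 tested members, with 2 at an unadjusted p under 0.05, while 4.05% of all genes were called, 0.276% higher and 3.77% lower. Of the related genes, Fat3, a giant cadherin, had no UMI there against 30.6 CPM in PVH cells (adjusted p = 0.0298, edgeR), and Ctnna1 stood at 0.184 ± 0.41 against 21.2 ± 4.31 CPM (adjusted p = 0.043).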

How the data were processed

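Single PVH neurons of 10 plates were profiled by 3′ single-cell RNA sequencing, with each plate a sample. The authors deposited a table of UMI counts per gene and well (960 wells) and a table of the cells that passed their quality control with cluster numbers. Per the submitters' processing notes, reads were handled with Trimmomatic 0.36 and STAR 2.5.3a. The aligned build is GRCm38. The sources give 8 plates in one place and 10 in another, and the kits and sequencer differ between methods and labels.

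UMI counts were summed over the cells of each cluster on each plate, keeping sums of at least 3 cells and clusters with at least 3 plates. Genes were filtered with filterByExpr (minimum count 10), scaled by TMM and tested with edgeR 4.0.16 (limma 3.58.1, R 4.3.3), with plate as a block and Benjamini-Hochberg adjustment over all genes tested. The replicate numbers are plates, and same-numbered sums share a plate by the labels, so the block is part of the design. The standard error is the absolute log2 fold change divided by the square root of F. DESeq2 1.42.0, RLE size factors, no filter, no block, sums of at least 5 cells, each plate left out, each prefix alone, cells capped at 1 UMI per gene and cells without non-neuronal markers were alternatives. Shares carry 95% Clopper-Pearson intervals, and thinned shares leave out 71 cells under 63046 UMIs. Scores over members were given no p, although an exact test had been planned. Python 3.11.15, numpy 2.4.6, pandas 2.3.3, scipy 1.17.1 and matplotlib 3.10.9 were used, and the tests were tried on simulated data.

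Members and lists were chosen with earlier results of these data known. Genes were named by a rule: the 20 called members with the largest F across clusters, the largest called changes in each cluster and pair, members within 15 UMIs of the limit, and Cdh1, Cdh2, Cdh5, Cdh13, Pcdhac2 and Pcdhgc5. Pcdhgc4 was not analysed here. Other members are described family by family.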

Additional observations from a re-analysis of the deposited data

Results flagged for a closer look

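Among 21 groups of 4 to 10 plates, 6 held a plate far from the others, by Dixon's test at the 95% level, which flags about 1 in 20 groups by chance. Cdh12 in cluster 1 was 0.189 CPM on Q8 and at most 0.0976 elsewhere, from 3 UMIs in all. Cdh13 in cluster 14 was 222 CPM on AL6, with the next plate at 104. Cdh9 in cluster 2 was 25.7 CPM on Q7, with the next plate at 107. Cdh9 in cluster 7 was 8.32 CPM on JM6, from 3 UMIs of 1 cell, and 0 on every other plate. Pcdh19 in cluster 2 was 2.21 CPM on Q8, with the next plate at 0.268. Pcdh9 in cluster 15 was 657 CPM on Q8, with the next plate at 306.

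Wells outside the table of cells also held members. Pcdh17 had a UMI in 99 of 254 such wells (39.0%), against 92.2% of the cells in the table, and these wells had a median of 29122 UMIs.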

How the results depend on the processing

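Across the clusters 25 members were called, against 17 with DESeq2 (15 of them shared), 38 with no replicate block, 15 with sums of at least 5 cells, 4 on Q plates only, 14 on AL and JM plates only and 19 to 26 with a plate left out. The 25 were all among the 38. The fits on 1 prefix did not hold all PVH clusters. Clusters 4, 12 and 13 had no cell on Q plates, cluster 3 had 1 there, and cluster 8 had 2 cells on AL and JM plates. The alternatives also kept clusters with sums on fewer plates than the main fit across clusters required, so these counts are not strictly alike. For each cluster against the others the 36 calls became 74 with DESeq2, 10 on Q plates only, 23 with cells capped at 1 UMI per gene and 22 to 33 with a plate left out, the lowest without AL5. Between pairs the 8 calls became 61 with DESeq2, 17 with no filter on low counts, 14 with no replicate block, 0 on Q plates only, 4 on AL and JM plates only and 5 to 9 with a plate left out. Between prefixes in cluster 1 the 0 calls became 1 with DESeq2, 1 with cells capped and 0 to 1 with a plate left out. The cause of these shifts was not tested. Of 780 alternatives for 43 named results, 655 kept direction and call, 124 lost the call and 1 turned: Pcdh17 in cluster 1, at -0.14 with cells capped. Where a cluster had no sum on a plate, leaving out that plate did not change its test against the others. Part of the 655 could therefore not have come out otherwise, and their share overstates how stable the calls were. RLE scaling moved the median of all genes by up to 0.17 in PVH clusters (cluster 9), DESeq2 by up to 0.27 (cluster 9) and no block by up to 0.53 (cluster 10), and no called direction turned under RLE or DESeq2.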
